A study of Mus musculus with 70 samples.

Results

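The genes described here are the secreted WNT ligands, the Frizzled receptors that bind them, and the secreted modulators of the SFRP, DKK and R-spondin families. Members were taken by name from the protein-coding genes of the deposited count table: Wnt or Fzd followed by a number (for Wnt with an optional a or b), and Sfrp, Rspo or Dkk followed by a single digit. The rule found 37 genes of 20780 protein-coding genes and 50789 genes in all. They were 17 Wnt ligands, 8 Frizzled receptors, 4 SFRPs, 4 DKKs and 4 R-spondins. Family members outside these 37 were not analysed here.

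WNT proteins are lipid-modified, secreted signals that bind a Frizzled receptor together with the LRP5 or LRP6 co-receptor and stabilise beta-catenin, or act through planar polarity and calcium branches. SFRPs carry a Frizzled-like domain and bind WNT proteins outside the cell, DKK1, DKK2 and DKK4 bind LRP5 and LRP6, and R-spondins bind LGR receptors and remove the ubiquitin ligases ZNRF3 and RNF43 that clear Frizzleds from the membrane. In lung the pathway is known for its part in mesenchymal growth and in the renewal of alveolar type 2 cells, and in brain for patterning, vessel and barrier formation, and synapse assembly.

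The transcriptional repressor Capicua has a short and a long isoform. Mice without the short one are called Cic-S-KO, mice without the long one Cic-L-KO, and wild-type mice served as controls (WT). Poly(A)-selected RNA of flash-frozen tissue was sequenced. Lung was taken at postnatal day 6 from 8 WT, 8 Cic-S-KO and 8 Cic-L-KO samples. Cortex and cerebellum were taken at 12 weeks, each from 8 WT, 7 Cic-S-KO and 8 Cic-L-KO samples. The WT groups pool littermates of both knockout lines, and the labels do not say which WT sample belongs to which line. No treatment, other allele, Cre driver, strain or sex is given in the sources used here. Lung carries batch label 1 and both brain regions batch label 2, so lung and brain levels were not tested against each other. Whether samples came from separate animals is not stated, so p-values measure the spread between these samples.

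The 70 libraries held 17798655 to 35523037 counts in genes. Defining markers fitted the tissue labels: Sftpc of alveolar type 2 cells was at 12160 to 18380 CPM (counts scaled to library size) in lung and at most 0.91 CPM in brain, Tbr1 at 106.6 to 181 CPM in cortex, and Gabra6 at 374.9 to 846 CPM in cerebellum. Cic itself was counted over both isoforms together, which checks neither knockout label, and its log2 fold changes against WT ran from -0.04 to 0.88. Cortex Cic-S-KO replicate 4 and cerebellum Cic-L-KO replicate 4 stood apart from their groups, and lung Cic-S-KO replicate 5 was the deepest library and had 16.5 CPM in a sum of 3 neuronal genes, against at most 4.34 CPM in the WT and Cic-L-KO lung libraries. In bulk tissue, fewer cells of a type and less RNA per cell cannot be told apart, which holds for every change below.

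The order of these genes by level differed between the tissues. Levels between genes are given as CPM per kilobase of exon, averaged over the 8 WT samples (± SD). In WT lung the highest was Dkk3, a secreted DKK relative whose link to LRP receptors is unsettled, at 98.5 ± 8.49 CPM per kb, followed by the receptors Fzd1 at 53.3 ± 3.91 and Fzd4 at 34.7 ± 3.81 CPM per kb. The highest ligands in WT lung were Wnt2, a mesenchymal signal for lung growth, at 30.5 ± 3.90 CPM per kb and Wnt5a, the main ligand of the planar polarity branch, at 27.6 ± 1.57 CPM per kb, whose ranges over samples overlapped. In WT cortex Dkk3 reached 140.2 ± 17.0 CPM per kb and the next gene, Fzd3, a receptor for axon guidance, 14.9 ± 0.836 CPM per kb. In WT cerebellum Wnt7a, a ligand for synapses and brain vessels, at 27.3 ± 1.69 CPM per kb and Fzd1 at 25.9 ± 2.87 CPM per kb led, and their ranges overlapped.

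Summed by family, DKK genes made up 63.1% of the members' CPM per kb in WT cortex, nearly all of it Dkk3, against 27.4% in lung and 9.65% in cerebellum. Frizzleds made up 34.7% in lung, 14.0% in cortex and 43.0% in cerebellum, and Wnt ligands 30.4%, 14.1% and 39.9% in the same order. At least 1 CPM per kb was reached by 10 of 17 ligands in lung, 7 in cortex and 6 in cerebellum. Dkk1, Dkk4 and Wnt8a stayed under the count filter in all 3 tissues. The filter kept 28 members in lung, 29 in cortex and 30 in cerebellum, and 24 passed in all 3 tissues.

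**Figure D1:**
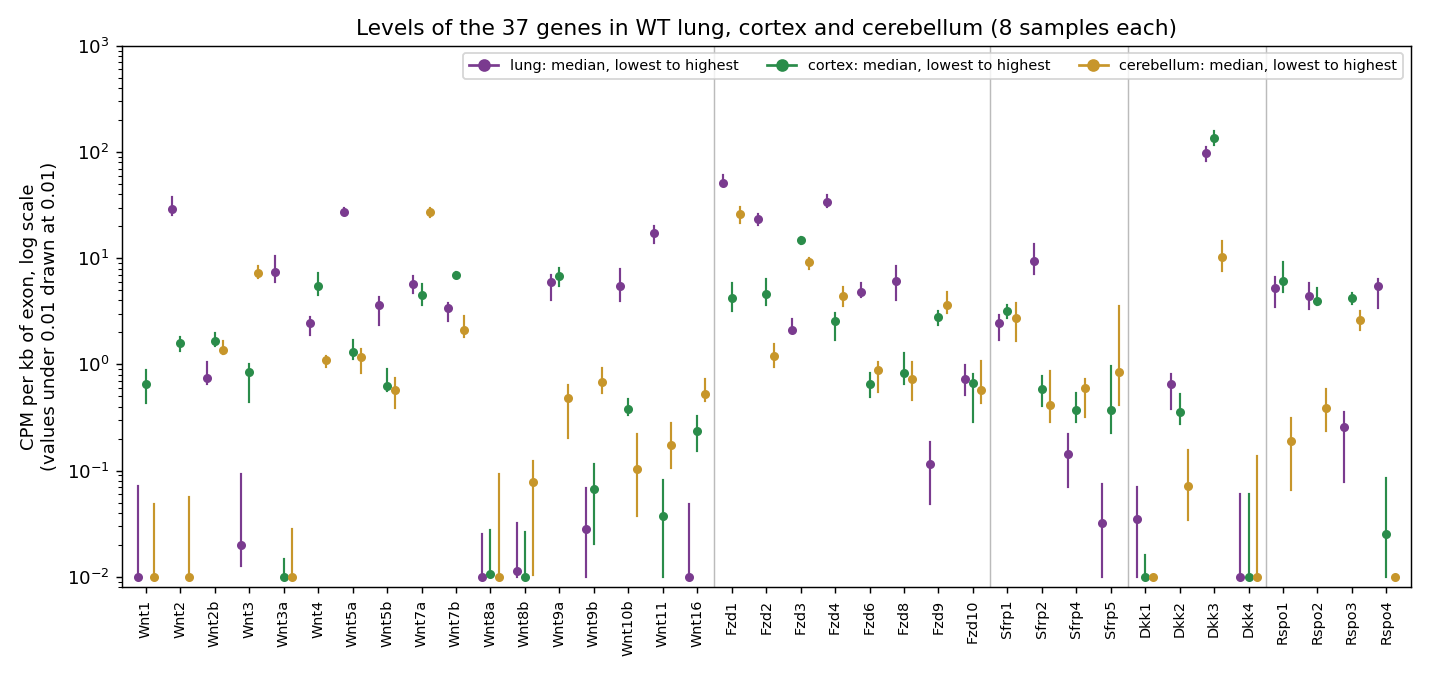
Level of each of the 37 genes in WT samples, as CPM per kb of exon on a log axis, grouped by family; the point is the median and the line the lowest to highest of 8 samples in lung, cortex and cerebellum. Dkk3 is highest in lung and cortex, and Wnt7a in cerebellum. Wnt2, Wnt3a and Wnt10b, among others, are drawn higher in lung than in either brain region, which was not tested because batch label and age differ.

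Within the brain, most of these genes differed between the 2 regions of WT mice. Of 32 members tested in the fit over cortex and cerebellum, 16 were higher and 11 lower in cortex, where 73.5% of all genes tested passed, 35.4% higher and 38.2% lower (edgeR's quasi-likelihood test, Benjamini-Hochberg adjusted p under 0.05, used for all calls below). Median absolute log2 difference was 1.73 for the members and 0.47 for all genes. The R-spondins were all on the cortical side: Rspo1 by 5.13 (SE 0.262), Rspo2 by 3.52 (SE 0.123) and Rspo3 by 0.80 (SE 0.0901) in log2, while Rspo4 was under the filter. Among ligands, Wnt2 (6.61), Wnt1 (5.66), Wnt9a (4.01), Wnt4 (2.45) and Wnt7b (1.76) were higher in cortex in log2. Wnt9b (-3.31), Wnt3 (-3.11), Wnt8b (-3.01), Wnt7a (-2.49), Wnt11 (-2.10) and Wnt16 (-1.09) were lower in cortex in log2. Wnt1 and Wnt2 were under the count filter in cerebellum alone, at WT means of 0.012 and 0.015 CPM per kb. Wnt8b, Wnt9b and Wnt11 were under it in cortex alone, at 0.0077, 0.067 and 0.040 CPM per kb. They entered the joint fit only through the region where they are high, and the size of their differences rests on few reads. The counts and the median above include them. Sfrp5 was lower in cortex by 2.5-fold (log2 difference -1.32, SE 0.490, edgeR adjusted p = 0.0149), and Sfrp4 by 1.38-fold. Choroid plexus markers moved with both: their summed CPM was 21.5 to 597.7 in WT cortex and 42.5 to 3120 in WT cerebellum. With the log2 of that sum as a covariate, an alternative chosen after seeing the data, the difference was -0.30 for Sfrp5 (edgeR adjusted p = 0.594) and -0.28 for Sfrp4 (edgeR adjusted p = 0.231).

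Among the comparisons of a knockout with WT, the largest fold changes of these genes were in Cic-L-KO cortex, in Sfrp5 and Rspo1. In Cic-L-KO cortex, 3 of 4 SFRP antagonists rose and 2 of 3 tested R-spondins fell, and ligands and receptors moved in both directions. In all, 9 members rose and 8 fell of 29 tested, where 43.2% of all genes tested passed (21.4% higher, 21.9% lower). The members' median log2 fold change was -0.05 against 0.01 for all genes, and their median absolute log2 fold change 0.34 against 0.18. Members were spread over both directions, as were all genes.

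Sfrp5, Sfrp2, Rspo1 and Wnt9a had the largest log2 differences among the 6 members whose cortical values did not overlap between Cic-L-KO and WT. These 6 are 20.7% of the members tested, and 13.2% of all genes tested did not overlap there. In the deposited table they are ENSMUSG00000018822.7 (Sfrp5), ENSMUSG00000027996.13 (Sfrp2), ENSMUSG00000028871.7 (Rspo1) and ENSMUSG00000000126.11 (Wnt9a). The 250 bases before their RefSeq start sites (GRCm38.p6) are shown as a description of the 4 genes. These were picked by their log2 differences, and a link between CG content and direction was not tested. Capitals mark CG dinucleotides, and each runs 5′ to 3′ on the gene's own strand, at chr19:42202253-42202502 (minus) for Sfrp5, chr3:83766071-83766320 (plus) for Sfrp2, chr4:124986180-124986429 (plus) for Rspo1 and chr11:59306680-59306929 (plus) for Wnt9a.
Sfrp5: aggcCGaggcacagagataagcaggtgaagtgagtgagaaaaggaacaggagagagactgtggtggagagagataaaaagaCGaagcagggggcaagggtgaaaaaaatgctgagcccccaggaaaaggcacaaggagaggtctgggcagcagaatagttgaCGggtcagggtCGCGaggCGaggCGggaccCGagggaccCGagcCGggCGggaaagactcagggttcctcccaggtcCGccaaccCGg
Sfrp2: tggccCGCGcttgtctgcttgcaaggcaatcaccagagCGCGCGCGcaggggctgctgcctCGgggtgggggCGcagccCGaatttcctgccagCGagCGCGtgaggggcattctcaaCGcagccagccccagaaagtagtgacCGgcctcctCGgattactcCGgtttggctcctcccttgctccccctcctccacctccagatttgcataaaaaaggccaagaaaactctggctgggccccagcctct
Rspo1: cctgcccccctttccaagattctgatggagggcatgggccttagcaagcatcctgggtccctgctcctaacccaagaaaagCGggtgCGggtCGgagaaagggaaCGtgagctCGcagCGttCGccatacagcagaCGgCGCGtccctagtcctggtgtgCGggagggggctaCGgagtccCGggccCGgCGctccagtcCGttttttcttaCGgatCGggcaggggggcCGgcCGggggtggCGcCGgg
Wnt9a: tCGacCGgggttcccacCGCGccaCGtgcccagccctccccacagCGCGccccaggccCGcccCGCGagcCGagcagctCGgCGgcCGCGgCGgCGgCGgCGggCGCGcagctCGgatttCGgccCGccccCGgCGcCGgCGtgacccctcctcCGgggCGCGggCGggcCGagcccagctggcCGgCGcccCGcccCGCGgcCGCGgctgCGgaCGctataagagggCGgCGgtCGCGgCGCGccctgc
They hold 13, 16, 22 and 48 CG dinucleotides in that order, with a GC content of 59.6%, 63.6%, 66.8% and 84.4%. RefSeq start windows of 300 bases, 250 before and 50 after the start, were found for 24 of the 37 members (27 windows). A member window held a median of 22 CG against 6 over all 32851 windows. The counts of the 4 genes above come from 250 bases and are not on the same scale. The 4 octamers known for Capicua binding, TGAATGAA, TGAATGGA, TCAATGAA and TCAATGGA, were searched on both strands. None of the 27 member windows held any of them, against 3.83% of all windows. This says only that these letters are not within those windows.

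Among the SFRPs in cortex, Sfrp5, which binds WNT5A and WNT11 in other tissues, was at 0.429, 0.705 and 1.82 CPM in WT (lowest, median and highest) and at 7.67, 8.22 and 9.62 CPM in Cic-L-KO. Every Cic-L-KO sample lay above every WT and every Cic-S-KO sample, whose highest was 3.73 CPM. The log2 fold change against WT was 3.28 (SE 0.360, edgeR adjusted p = 2.04e-07). Choroid plexus markers were also higher in part of this group: their summed CPM was 18.8 to 1322 in Cic-L-KO (median 417.7), 21.5 to 597.7 in WT (median 29.3) and 9.47 to 629.3 in Cic-S-KO, and 2 of 7 tested markers passed as higher. Among Cic-L-KO samples, replicates 4, 7 and 8 had marker sums of 70.2, 51.5 and 18.8 CPM and Sfrp5 at 7.67, 8.21 and 9.62 CPM, and replicate 5 a sum of 1322 CPM and Sfrp5 at 9.11 CPM. With the marker sum as a covariate the log2 fold change was 3.04 (SE 0.308), and the source of the Sfrp5 counts was not tested.

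Sfrp2, which binds WNT ligands and is also made by fibroblasts, was at 0.866, 1.26 and 1.69 CPM in WT cortex (lowest, median and highest), 1.29, 1.98 and 3.08 CPM in Cic-S-KO and 1.89, 3.04 and 3.93 CPM in Cic-L-KO. Cic-L-KO did not overlap WT, and Cic-S-KO overlapped both. Against WT the log2 fold change was 1.16 (SE 0.180, edgeR adjusted p = 4.92e-06) in Cic-L-KO and 0.69 (SE 0.189, edgeR adjusted p = 0.0264) in Cic-S-KO. Of 8 markers of meninges and fibroblasts 2 passed as lower in Cic-L-KO cortex, with a sum of 51.4 to 123.7 CPM in WT and 48.2 to 110.0 CPM in Cic-L-KO. Of 5 tested markers of lung fibroblasts and myofibroblasts 3 passed as higher there, with a sum over the list of 84.2 to 112.6 CPM in WT and 90.7 to 119.8 CPM in Cic-L-KO, and the part of either in the Sfrp2 result was not tested. Sfrp4 was at 1.21, 1.54 and 2.23 CPM in WT and 2.13, 2.73 and 3.40 CPM in Cic-L-KO, with a slight overlap of the groups (log2 fold change 0.75, SE 0.158, edgeR adjusted p = 0.000273). Sfrp1, the most abundant SFRP in cortex, was at 11.9 to 15.9 CPM in WT and 10.8 to 15.4 CPM in Cic-L-KO and did not pass (edgeR adjusted p = 0.836).

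Of the 3 tested R-spondins, Rspo1 and Rspo3 fell in Cic-L-KO cortex. Rspo1 was at 9.34, 11.8 and 17.8 CPM in WT cortex, 8.47, 11 and 14.5 CPM in Cic-S-KO and 1.07, 1.74 and 2.6 CPM in Cic-L-KO. All 8 Cic-L-KO samples lay below all WT and Cic-S-KO samples, a 7.01-fold lower level (log2 fold change -2.81, SE 0.151, edgeR adjusted p = 2.04e-14). Rspo3, known as an endothelial R-spondin, was at 11.4, 13.0 and 14.4 CPM in WT, 7.70, 11.1 and 12.1 CPM in Cic-S-KO and 8.09, 9.79 and 12.4 CPM in Cic-L-KO. Its groups overlapped, and it fell in both knockouts, by 0.31 (SE 0.0841, edgeR adjusted p = 0.0246) and 0.40 (SE 0.0813, edgeR adjusted p = 0.000203) in log2. Rspo2 was at 18.5, 20.4 and 26.7 CPM in WT and 14.8, 17.8 and 20.6 CPM in Cic-S-KO, where it fell by 0.30 in log2 (SE 0.0806, edgeR adjusted p = 0.0239). In Cic-L-KO it was at 16.7, 19.6 and 22.8 CPM and did not pass (log2 fold change -0.18, SE 0.0773, edgeR adjusted p = 0.0557). Rspo4 was under the filter in cortex.

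**Figure D2:**
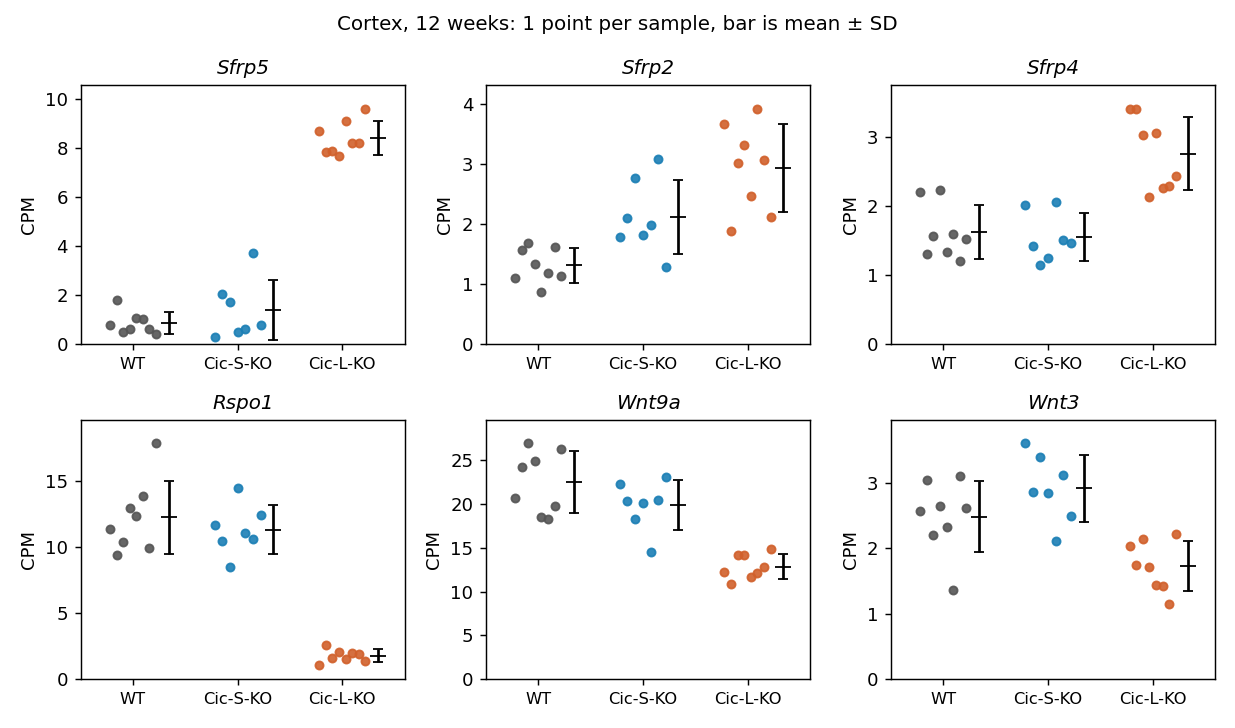
CPM of Sfrp5, Sfrp2, Sfrp4, Rspo1, Wnt9a and Wnt3 in each cortex sample (8 WT, 7 Cic-S-KO, 8 Cic-L-KO), with the mean ± SD beside the points. For Sfrp5, Rspo1, Sfrp2 and Wnt9a no Cic-L-KO sample overlaps WT, with Sfrp5 at 7.67 to 9.62 CPM against at most 1.82 CPM.

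Of 12 ligands tested in Cic-L-KO cortex, 3 rose and 3 fell. Wnt9a, a ligand first studied in joint formation, was at 18.3, 22.5 and 27.0 CPM in WT, 14.5, 20.4 and 23.1 CPM in Cic-S-KO and 10.8, 12.5 and 14.8 CPM in Cic-L-KO. It fell 1.75-fold without overlap with WT (log2 fold change -0.81, SE 0.0938, edgeR adjusted p = 8.14e-08). Wnt3, a canonical ligand, was at 1.37, 2.6 and 3.10 CPM in WT and 1.14, 1.74 and 2.21 CPM in Cic-L-KO (a change in log2 of -0.51, SE 0.160, edgeR adjusted p = 0.00992), with overlap. Wnt2 fell by 0.39 in log2. Wnt7b, which acts with Wnt7a on brain vessels and dendrites, rose by 0.29 in log2 from 31.8 to 36.4 CPM in WT to 40.3 to 45.8 CPM in Cic-L-KO, without overlap. Wnt7a rose by 0.32 and Wnt1 by 0.41 in log2, with overlapping groups, and Wnt1 had an edgeR adjusted p of 0.0545 to 0.0943 in 4 alternatives. The exons of Wnt7b share 324 bases with a gene on the other strand, as do parts of Fzd6, Rspo3, Sfrp2, Wnt11 and Wnt5a, and whether counting used strand is not given in the sources used here.

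Of the 8 Frizzleds in Cic-L-KO cortex, 2 rose and 2 fell. Fzd3 was at 176, 190 and 205 CPM in WT and 138, 152 and 156 CPM in Cic-L-KO, without overlap (log2 fold change -0.36, SE 0.0433, edgeR adjusted p = 6.96e-08). Fzd1 fell by 0.44 in log2, from 13.4 to 24.8 CPM in WT to 9.77 to 16.8 CPM. Fzd4, the norrin receptor of vessels, rose by 0.35 in log2 (edgeR adjusted p = 0.0244) and Fzd6, a planar polarity receptor, by 0.34 in log2. Endothelial markers moved the same way, with 4 of 6 higher and a summed level of 133 to 191.2 CPM in WT and 167.3 to 213.5 CPM in Cic-L-KO, and their part in the Fzd4 result was not tested. With the choroid plexus covariate Fzd4 had a log2 fold change of 0.21 (edgeR adjusted p = 0.157). The Fzd4 call was also lost without the count filter (edgeR adjusted p = 0.0645) and in a fit of the compared genotypes alone (0.0572). Of the DKKs, Dkk2 rose by 0.48 (SE 0.159) and Dkk3 fell by 0.32 (SE 0.0901) in log2, Dkk2 from 1.02 to 1.97 CPM in WT to 1.36 to 2.39 CPM and Dkk3 from 393 to 536 CPM to 339 to 426 CPM. Of the excitatory neuron markers 3 of 5 fell, their sum being 1918 to 2117 CPM in WT and 1462 to 1700 CPM in Cic-L-KO, and their part in the members' changes was not tested.

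In Cic-S-KO cortex Sfrp2 rose and Rspo2 and Rspo3 fell, 3 of 29 tested, where 6.53% of all genes tested passed (2.83% higher, 3.7% lower). These calls were close to the threshold. With each library's bias over gene GC content removed, none of the 3 passed, at edgeR adjusted p of 0.0573, 0.0634 and 0.061 for Sfrp2, Rspo2 and Rspo3, while 6 members had an unadjusted p under 0.05 there. DESeq2, run without GC adjustment, gave 3 calls.

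The 2 knockouts were also compared directly. In cortex, 6 members were higher and 5 lower with the short isoform missing than with the long one missing, 11 of 29 tested, where 33.9% of all genes passed. Rspo1 (2.69, SE 0.154), Wnt3 (0.75, SE 0.162), Wnt9a (0.63, SE 0.0967) and Fzd1 (0.52, SE 0.109) were higher in Cic-S-KO in log2. Sfrp5 (-2.58, SE 0.353), Sfrp4 (-0.82, SE 0.164) and Sfrp2 (-0.47, SE 0.178) were lower in log2. The Sfrp2 difference passed with all libraries (edgeR adjusted p = 0.0398), and not without Cortex Cic-S-KO replicate 4 (edgeR adjusted p = 0.0668) or with the choroid plexus covariate (edgeR adjusted p = 0.219). Rspo1, Sfrp4, Sfrp5 and Wnt7b did not overlap between the knockouts, 13.8% of members tested against 10.6% of all genes.

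Cerebellum showed another set. In Cic-S-KO cerebellum 5 members rose (Dkk2, Fzd10, Fzd2, Wnt3 and Wnt7b) and Wnt7a fell, 6 of 30 tested, where 8.23% of all genes passed. In Cic-L-KO cerebellum 6 rose (Fzd10, Fzd2, Fzd6, Fzd8, Wnt4 and Wnt5a) and 3 fell (Fzd1, Wnt10b and Wnt7a), 9 of 30 tested, where 21.5% of all genes passed. The members' median log2 fold change was 0.26 in both knockouts, against 0.01 and 0.00 for all genes. Positive log2 fold changes, passed or not, were seen in 25 of 30 members in Cic-S-KO and 22 of 30 in Cic-L-KO. Both comparisons use the same WT samples. The 4 SFRPs and the 3 tested R-spondins did not pass in either knockout in this fit. Closest were Sfrp1 and Sfrp2 in Cic-L-KO, each with a log2 fold change of 0.62 (SE 0.242 and 0.248, edgeR adjusted p = 0.0741 and 0.0743). With the choroid plexus covariate Sfrp1 passed there (log2 fold change 0.48, SE 0.143, edgeR adjusted p = 0.0181). Sfrp5 was at 0.782 to 6.79 CPM in WT, 1.03 to 9.10 CPM in Cic-S-KO and 1.90 to 9.59 CPM in Cic-L-KO (edgeR adjusted p = 0.597 and 0.276). Its highest sample in each group had a choroid plexus marker sum of 2805, 4292 and 3022 CPM in that order, and the highest brainstem neuron marker sum of the group, 110.9, 177.8 and 197.3 CPM. WT replicate 4 and Cic-L-KO replicate 7 had higher choroid plexus sums, 3120 and 3519 CPM, with Sfrp5 at 1.61 and 2.97 CPM. The part of either tissue in these values was not tested.

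Among the ligands, Wnt7a was the most abundant in cerebellum, at 77.0, 87.1 and 94.3 CPM in WT, 49.7, 65.7 and 78.3 CPM in Cic-S-KO and 54.8, 68.1 and 75.5 CPM in Cic-L-KO. No Cic-L-KO sample reached the lowest WT sample, and Cic-S-KO overlapped WT slightly. Its log2 fold change was -0.38 (SE 0.076, edgeR adjusted p = 0.00317) in Cic-S-KO and -0.36 (SE 0.073, edgeR adjusted p = 0.00101) in Cic-L-KO. Wnt7a and Wnt4 were the 2 members without overlap between Cic-L-KO and WT, 6.67% of members tested against 3.96% of all genes. WNT7A is known as a signal from granule neurons to mossy fibres. Granule neuron markers fell as well, 4 of 6 in Cic-S-KO and 2 of 6 in Cic-L-KO, with summed levels of 4747 to 5929 CPM in WT, 3278 to 4970 in Cic-S-KO and 3738 to 5087 CPM in Cic-L-KO, and their part in the Wnt7a result was not tested.

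Wnt3, made by Purkinje cells, was at 20.1, 22.4 and 26.2 CPM in WT cerebellum, 25.3, 27.8 and 32.4 CPM in Cic-S-KO and 18.4, 21.9 and 24.3 CPM in Cic-L-KO. It rose in Cic-S-KO (log2 fold change 0.32, SE 0.0626, edgeR adjusted p = 0.00243) and did not pass in Cic-L-KO (-0.07, edgeR adjusted p = 0.454). The knockouts did not overlap each other, with a log2 difference of 0.39 (SE 0.0626, edgeR adjusted p = 9.59e-05). Purkinje cell markers had 2 of 6 higher in Cic-S-KO, with a sum of 7546 to 10990 CPM in WT and 9737 to 12700 CPM in Cic-S-KO, and their part in the Wnt3 result was not tested. Wnt10b, a canonical ligand, was low throughout, at 0.127, 0.354 and 0.745 CPM in WT, 0.547, 0.703 and 1.13 CPM in Cic-S-KO and 0.041, 0.234 and 0.348 CPM in Cic-L-KO. It differed between the knockouts without overlap, by 3.51-fold (log2 1.81, SE 0.341, edgeR adjusted p = 0.000612). Against WT it fell in Cic-L-KO (a change in log2 of -1.07, SE 0.346, edgeR adjusted p = 0.0275), with an edgeR adjusted p from 0.0234 to 0.0672 over 8 alternatives, above 0.05 in 3 of them.

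Wnt5a was at 6.49, 9.10 and 11 CPM in WT cerebellum and 10.2, 12.2 and 17.5 CPM in Cic-L-KO (a change in log2 of 0.54, SE 0.127, edgeR adjusted p = 0.00301). Wnt4, a ligand of kidney and gonad development, was at 3.99, 4.61 and 5.02 CPM in WT and 5.32, 5.82 and 8.41 CPM in Cic-L-KO, without overlap (log2 fold change 0.47, SE 0.106, edgeR adjusted p = 0.00209). Meningeal and fibroblast markers moved with them, 7 of 8 higher, at 120.9 to 164.8 CPM in WT and 171.8 to 214.1 CPM in Cic-L-KO, as did 6 of 6 endothelial markers, at 105.5 to 137.5 and 162.7 to 200.8 CPM. Their part in the Wnt4, Wnt5a and Frizzled results was not tested.

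Frizzleds made up 5 of the 9 members called in Cic-L-KO cerebellum. Fzd10, a receptor for canonical ligands, was at 1.41, 1.86 and 3.47 CPM in WT, 2.34, 2.88 and 5.29 CPM in Cic-S-KO and 2.29, 3.04 and 4.65 CPM in Cic-L-KO. It rose in both, by 0.76 (SE 0.208, edgeR adjusted p = 0.0228) and 0.71 (SE 0.201, edgeR adjusted p = 0.0121) in log2, and WT replicate 1 alone among the WT samples reached into the knockout range. Fzd2 was at 3.45, 4.35 and 5.71 CPM in WT, 3.89, 6.0 and 10.3 CPM in Cic-S-KO and 5.11, 6.39 and 8.17 CPM in Cic-L-KO. The groups overlapped, and it rose by 0.51 (SE 0.158, edgeR adjusted p = 0.0428) in Cic-S-KO and 0.53 (SE 0.153, edgeR adjusted p = 0.0133) in Cic-L-KO in log2. The Fzd2 call in Cic-S-KO was lost without the count filter (edgeR adjusted p = 0.0892) and in a fit of the compared genotypes alone (0.0706). Fzd1 was at 90.8, 110 and 126 CPM in WT, 105, 126 and 142 CPM in Cic-S-KO and 77.3, 91.2 and 104 CPM in Cic-L-KO. It fell in Cic-L-KO by 0.28 in log2, and the knockouts did not overlap (log2 difference 0.49, SE 0.0769, edgeR adjusted p = 0.000108). Fzd6 and Fzd8 rose by 0.37 each in Cic-L-KO in log2. The Fzd6 call (edgeR adjusted p = 0.0364) was lost without Cerebellum Cic-L-KO replicate 4 (0.0573). In the direct comparison Fzd1, Wnt3 and Wnt10b, 3 of 30 tested, were higher in Cic-S-KO, where 12.4% of all genes passed (6.06% higher, 6.38% lower). None of these 3 overlapped between the knockouts, 10% of members tested against 2.75% of all genes. Without Cerebellum Cic-L-KO replicate 4, 5 members passed, Dkk3 and Sfrp4 being the ones added.

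Dkk2, the other DKK above the filter beside Dkk3, was at 0.127, 0.265 and 0.584 CPM in WT cerebellum, 0.411, 0.726 and 1.06 CPM in Cic-S-KO and 0.0775, 0.405 and 0.834 CPM in Cic-L-KO. It was 2.4-fold higher in Cic-S-KO than in WT (log2 fold change 1.26, SE 0.34, edgeR adjusted p = 0.021), with overlapping groups, and did not pass in Cic-L-KO (0.55, SE 0.344).

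**Figure D3:**
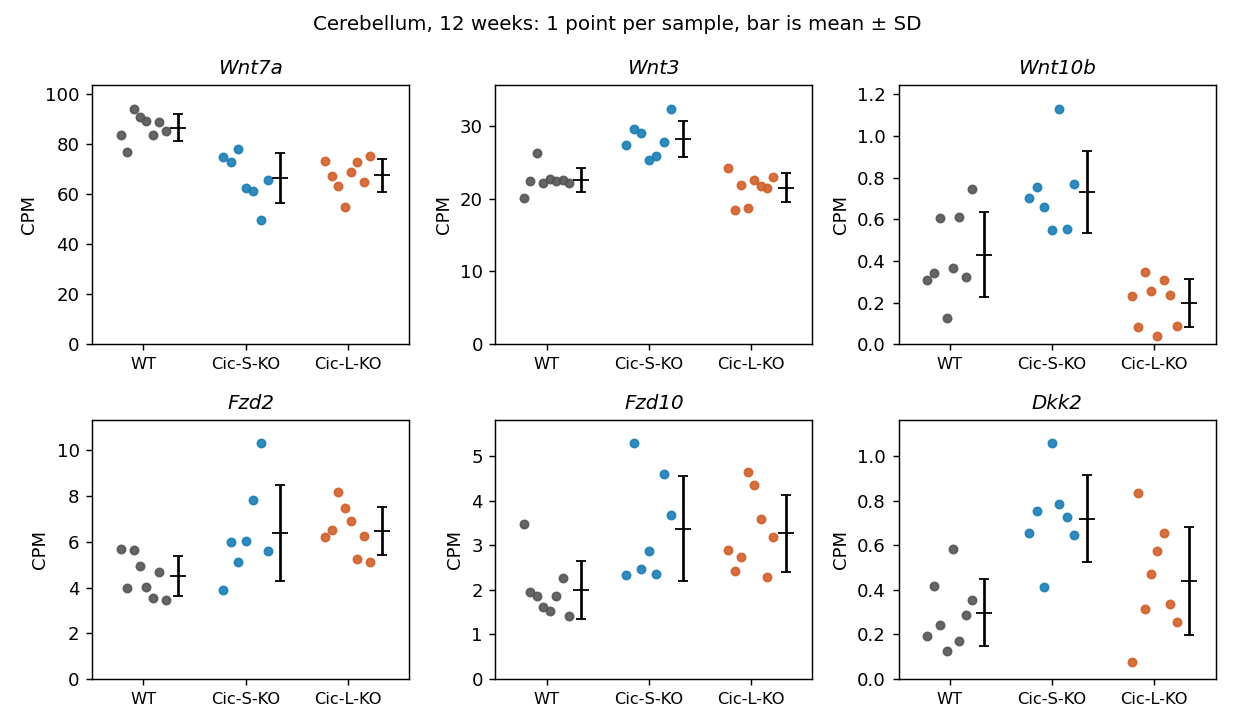
CPM of Wnt7a, Wnt3, Wnt10b, Fzd2, Fzd10 and Dkk2 in each cerebellum sample (8 WT, 7 Cic-S-KO, 8 Cic-L-KO), with the mean ± SD beside the points. Wnt7a lies lower in both knockouts, Fzd2 and Fzd10 higher in both, and Wnt3 and Wnt10b separate the 2 knockouts from each other.

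In postnatal lung, SFRPs, an R-spondin and ligands made up the rises after loss of the short isoform. In Cic-S-KO lung 5 members rose (Rspo1, Sfrp1, Sfrp2, Wnt2b and Wnt4) and 2 fell (Rspo4 and Fzd1), 7 of 28 tested, where 15.7% of all genes passed (9.99% higher, 5.73% lower). In Cic-L-KO lung Fzd2 and Wnt7a rose and Dkk2 fell, 3 of 28 tested, where 4.89% of all genes passed (2.62% higher, 2.28% lower). Over the members the median fold change in log2 was -0.01 for Cic-S-KO lung and 0.08 for Cic-L-KO lung, against 0.00 for all genes in both. Wnt2, Wnt5a, Wnt11 and Fzd4, among the most abundant members in lung, did not pass in either knockout.

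Both SFRPs that rose in Cic-S-KO were without overlap with WT, as was Rspo1. These 3 are 10.7% of the members tested, and 1.84% of all genes tested did not overlap there. Sfrp2 was at 15.2, 20.1 and 29.3 CPM in WT lung, 30.2, 36.3 and 40.7 CPM in Cic-S-KO and 18.7, 22.2 and 27.4 CPM in Cic-L-KO. It was 1.76-fold higher in Cic-S-KO than in WT (log2 fold change 0.82, SE 0.0984, edgeR adjusted p = 1.4e-05) and 1.6-fold higher than in Cic-L-KO (log2 difference 0.68, SE 0.0984, edgeR adjusted p = 5.82e-05). Sfrp1 was at 7.42, 10.7 and 12.89 CPM in WT, 12.93, 16.1 and 28.4 CPM in Cic-S-KO and 9.01, 13.3 and 15.7 CPM in Cic-L-KO. The lowest Cic-S-KO sample lay just above the highest WT sample (log2 fold change 0.68, SE 0.140, edgeR adjusted p = 0.00188).

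Rspo1 was at 6.66, 10.2 and 12.9 CPM in WT lung, 13.0, 14.6 and 16.4 CPM in Cic-S-KO and 9.70, 11.4 and 17.7 CPM in Cic-L-KO. It rose in Cic-S-KO without overlap (log2 fold change 0.59, SE 0.122, edgeR adjusted p = 0.00175), the opposite of its fall in Cic-L-KO cortex. Rspo4 was at 8.09, 13.0 and 15.0 CPM in WT, 4.79, 8.34 and 10.6 CPM in Cic-S-KO and 5.34, 8.94 and 13.0 CPM in Cic-L-KO. It fell 1.51-fold in Cic-S-KO (log2 fold change -0.59, SE 0.159, edgeR adjusted p = 0.012) and did not pass in Cic-L-KO (-0.46, SE 0.159, edgeR adjusted p = 0.090). Rspo1 and Rspo4 moved in opposite directions in the same lungs.

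Wnt2b, a ligand of early lung specification, was at 2.73, 3.14 and 4.40 CPM in WT lung, 3.34, 4.42 and 5.84 CPM in Cic-S-KO and 2.05, 3.09 and 4.32 CPM in Cic-L-KO. It rose by 0.49 in log2 in Cic-S-KO (SE 0.146, edgeR adjusted p = 0.0232, and 0.0545 with GC bias removed), and was 0.53 higher than in Cic-L-KO (SE 0.147, edgeR adjusted p = 0.0171). Wnt4 rose by 0.33 in log2 in Cic-S-KO (edgeR adjusted p = 0.0373), from 8.02 to 11.8 CPM in WT to 9.98 to 15.9 CPM, and had 0.0559 without the count filter and 0.0842 with GC bias removed. Fzd1 was at 211, 216 and 255 CPM in WT and 183, 197 and 214 CPM in Cic-S-KO, a fall of 0.19 in log2 (SE 0.0475, edgeR adjusted p = 0.00786). Mesothelial markers moved with the Cic-S-KO lung changes: all 5 were higher, with a sum of 267.5 to 445.1 CPM in WT and 415.8 to 585.4 CPM in Cic-S-KO. They were also higher in Cic-L-KO, 3 of 5, at 436.4 to 560.4 CPM, where Sfrp1, Sfrp2, Rspo1 and Wnt2b did not pass. In Cic-S-KO lung 3 of 6 endothelial markers were lower (3246 to 4091 CPM in WT, 2813 to 3743 CPM in Cic-S-KO), as were 2 of 5 pericyte and smooth muscle markers (1258 to 1641 and 1104 to 1368 CPM), and 3 of 6 markers of the microglia list were higher (214.2 to 265.8 and 270.9 to 363.2 CPM). The part of any of these in the members' results was not tested.

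In Cic-L-KO lung Dkk2, an LRP-binding modulator, was at 1.42, 2.43 and 3.03 CPM in WT, 1.40, 2.31 and 4.54 CPM in Cic-S-KO and 0.603, 1.15 and 1.92 CPM in Cic-L-KO. It was 1.9-fold lower than in WT (log2 fold change -0.93, SE 0.259, edgeR adjusted p = 0.034) and 2.21-fold lower than in Cic-S-KO (log2 difference 1.15 for Cic-S-KO against Cic-L-KO, SE 0.258, edgeR adjusted p = 0.00379). Wnt7a was at 14.8, 18.1 and 21.4 CPM in WT and 18.2, 23.5 and 28.9 CPM in Cic-L-KO (a change in log2 of 0.38, SE 0.0996, edgeR adjusted p = 0.0258). Alveolar type 1 cell markers were higher in 3 of 6 cases there, with a sum of 3033 to 3495 CPM in WT and 3523 to 3959 CPM in Cic-L-KO, and their part in the Wnt7a result was not tested. Fzd2 rose by 0.21 in log2 (edgeR adjusted p = 0.0315, and 0.116 with GC bias removed). Between the knockouts, Dkk2, Sfrp2 and Wnt2b were higher and Dkk3, Fzd1 and Wnt7a lower in Cic-S-KO, 6 of 28 tested, where 12.2% of all genes passed (7.31% higher, 4.85% lower). Leaving out lung Cic-S-KO replicate 5 kept the counts of calls at 7, 3 and 6 for the 3 lung comparisons.

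**Figure D4:**
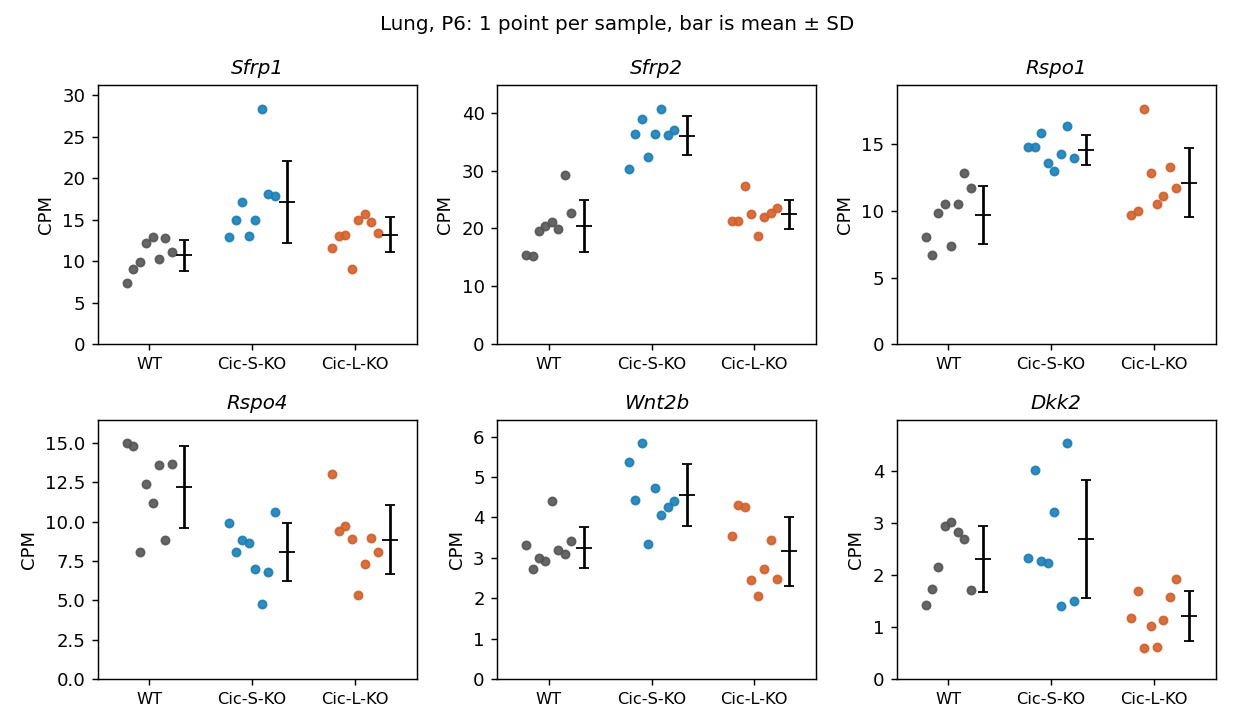
CPM of Sfrp1, Sfrp2, Rspo1, Rspo4, Wnt2b and Dkk2 in each lung sample (8 per genotype), with the mean ± SD beside the points. Sfrp1, Sfrp2 and Rspo1 in Cic-S-KO lie above all WT samples, and Dkk2 is lowest in Cic-L-KO.

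Over the 6 comparisons of a knockout with WT, 27 of the 37 members passed in at least 1 and 10 in none. Of the 34 members tested in any tissue this is 79.4%, where 56.3% of all 19440 such genes passed in at least 1 tissue. In 2 or more tissues 10 members passed, 29.4% against 18.9% of all genes, and 3 of these, Dkk2, Fzd1 and Wnt7a, in all 3, 8.82% against 2.75%. Fzd1 fell in each of its 3 calls, in Cic-S-KO lung, Cic-L-KO cortex and Cic-L-KO cerebellum. Dkk2 fell in Cic-L-KO lung and rose in Cic-L-KO cortex and Cic-S-KO cerebellum. Wnt7a rose in Cic-L-KO lung and cortex and fell in both knockouts in cerebellum. Sfrp2 rose in all 3 of its calls, in Cic-S-KO lung and in both knockouts in cortex. Wnt3 fell in Cic-L-KO cortex and rose in Cic-S-KO cerebellum, and Rspo1 rose in Cic-S-KO lung and fell in Cic-L-KO cortex. Fzd6 rose in Cic-L-KO cortex and cerebellum, Wnt7b in Cic-L-KO cortex and Cic-S-KO cerebellum, Wnt4 in Cic-S-KO lung and Cic-L-KO cerebellum, and Fzd2 in Cic-L-KO lung and in both knockouts in cerebellum. Each pair of knockout comparisons in a tissue shares its WT samples.

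**Figure D5:**
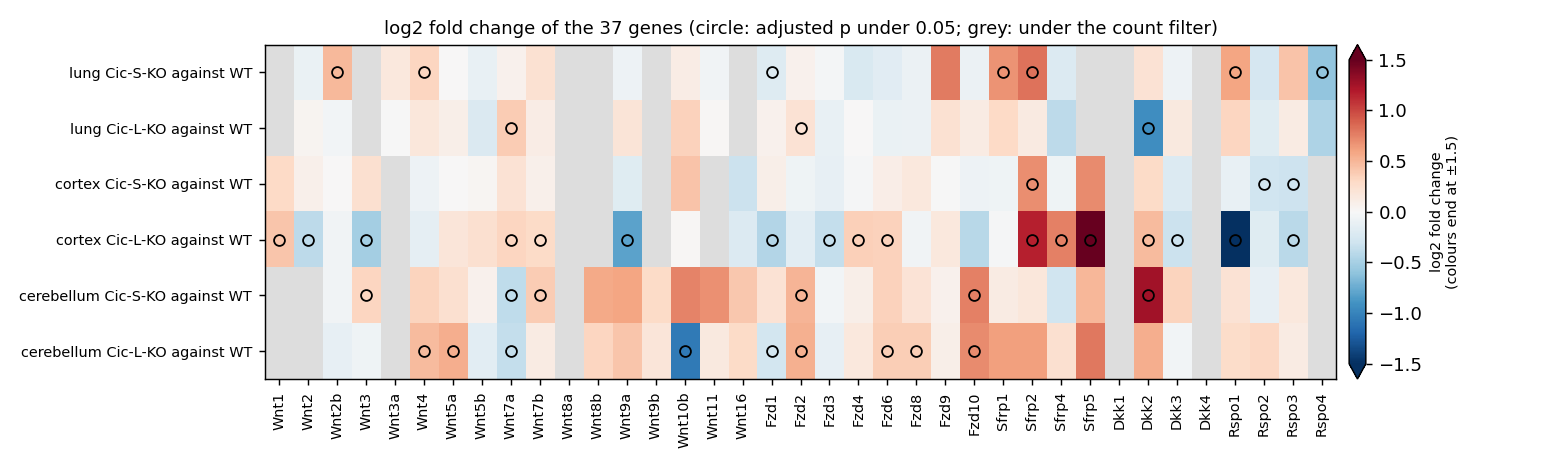
log2 fold change of each of the 37 genes in the 6 comparisons of a knockout with WT, from blue (lower) to red (higher) with colours ending at 1.5 in either direction; circles mark an adjusted p under 0.05 and grey a gene under the count filter. Cic-L-KO cortex holds the most circles, 17, and Wnt7a is circled red in Cic-L-KO lung and cortex and blue in both cerebellum comparisons.

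The 46 brain samples were fitted together, without pairing, to ask whether a knockout had unequal effects in cortex and cerebellum (an interaction term). For Cic-L-KO 3 members had a higher and 9 a lower effect in cortex than in cerebellum, 12 of 32 tested, where 23.0% of all genes passed. Rspo1 differed most, by -3.09 in log2 (SE 0.417, edgeR adjusted p = 2.85e-07). Cerebellar Rspo1 was low in every genotype, 0.127 to 0.604 CPM in WT and 0.169 to 1.01 CPM in Cic-L-KO. Sfrp5 differed by 2.49 (SE 0.629, edgeR adjusted p = 0.00313), and by 2.29 with the choroid plexus covariate. Wnt7a differed by 0.68 in log2 (SE 0.128, edgeR adjusted p = 9.16e-05), the rise in cortex against the fall in cerebellum. Wnt9a (-1.23, SE 0.22), Fzd10 (-1.13, SE 0.292), Fzd2 (-0.69, SE 0.169), Wnt4 (-0.60, SE 0.143) and Rspo3 (-0.52, SE 0.127) had lower log2 effects in cortex, and Wnt10b a higher one (1.08, SE 0.356). For Cic-S-KO 5 of 32 passed, where 4.5% of all genes passed (2.01% higher): Wnt7a (0.60, SE 0.133) was higher, and Rspo3 (-0.47, SE 0.132), Wnt9a (-0.78, SE 0.225), Fzd2 (-0.58, SE 0.176) and Wnt9b (-1.37, SE 0.415) lower. Of these, Fzd2, Wnt9a and Wnt9b were lost without the count filter (edgeR adjusted p = 0.115, 0.0959 and 0.0589), and Wnt9b also with the choroid plexus covariate (0.0506). Wnt9b, a kidney and facial ligand, was at 0.0927 to 0.517 CPM in WT cortex and 0.0342 to 0.372 CPM in Cic-S-KO cortex, so that its interaction rests on few counts in cortex. In cerebellum it was at 2.41, 3.11 and 4.19 CPM in WT and 3.17, 3.79 and 5.50 CPM in Cic-S-KO (edgeR adjusted p = 0.181).

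The remaining genes of the pathway were read from lists of 82 genes, of which 80 were in the table. They covered co-receptors and R-spondin receptors, WNT processing and secretion, other antagonists, the beta-catenin arm, common target genes and the planar polarity and calcium arm. In Cic-L-KO cortex 29 rose and 16 fell of 78 tested, a share of 57.7%, where 43.2% of all genes passed. All 5 genes of the processing and secretion list passed there, 2 higher (Notum and Porcn) and 3 lower (Wls, Tmed5 and Ndp). Notum and Ndp are not themselves secretion genes. Wls, the carrier that brings WNT proteins to the surface, fell by 0.32 in log2 (SE 0.056, edgeR adjusted p = 3.52e-05). Of other antagonists 7 of 9 passed, including Dkkl1, a DKK relative (-1.46, SE 0.0811), and Frzb, an SFRP (-1.02, SE 0.0938), which both fell in log2. Frzb thus fell in the tissue where Sfrp2, Sfrp4 and Sfrp5 rose. Myc, a target of many pathways, rose by 0.90 in log2.

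Axin2, a widely used reporter of beta-catenin signalling, did not pass in any of the 6 comparisons, with an edgeR adjusted p of 0.16 to 0.915. Its level in cortex was 23.3, 25.3 and 27.3 CPM in WT and 22.9, 28.0 and 31.2 CPM in Cic-L-KO (a change in log2 of 0.08, SE 0.0598, edgeR adjusted p = 0.298). Lgr5, an R-spondin receptor, did not pass in any either. Lef1, a nuclear partner of beta-catenin, rose in Cic-L-KO cerebellum by 0.59 in log2 (SE 0.156, edgeR adjusted p = 0.0073) and did not pass elsewhere. In that group 13 list genes rose and 8 fell of 80 tested (26.3%, where 21.5% of all genes passed), led by Ccnd1 (0.47, SE 0.0778), Dact1 (-0.43, SE 0.0729) and Nfatc2 (0.43, SE 0.0721) in log2. In Cic-S-KO cerebellum 8 rose and 3 fell (13.8%, where 8.23% of all genes passed), led by Igfbp4 (0.71), Camk2a (0.40) and Pygo1 (0.18) in log2.

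In Cic-S-KO lung 2 list genes rose and 11 fell of 78 tested (16.7%), near the 15.7% of all genes that passed. Of 18 genes of the receptor list 3 were lower (Tspan12, Lrp6 and Gpc4) and 1, Kremen2, higher. Over all lists the smallest p were those of Tnfrsf19, a target gene (-0.35, SE 0.0769), Pygo1 of the beta-catenin arm (-0.18, SE 0.0449) and Tspan12 (-0.28, SE 0.0699), in log2. Wls fell there by 0.15 (SE 0.044, edgeR adjusted p = 0.0211). In Cic-L-KO lung 3 passed, all higher (3.85%, under the 4.89% of all genes that passed): Notum, an enzyme that removes the lipid of WNT proteins, at 5.06, 6.51 and 8.0 CPM in WT and 8.68, 10.9 and 13.2 CPM in Cic-L-KO (a change in log2 of 0.77, SE 0.113, edgeR adjusted p = 9.84e-05), Daam2 (0.37, SE 0.0743) and Sp5 (0.49, SE 0.130). In Cic-S-KO cortex 5 rose and 2 fell (8.97%, where 6.53% of all genes passed), with Dvl2 (0.38, SE 0.0687) first.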

How the data were processed

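The deposited table holds raw read counts per gene, 1 column for each of 70 samples. Per the submitters' processing notes, STAR 2.7 and GRCm38.p6 were used, and the annotation, counting program and strand setting are not given in the sources used here. Gene symbols, positions and exon lengths came from GENCODE annotation of GRCm38, matched by identifier for 50725 of 50789 genes (64 unmatched). Promoter sequences came from RefSeq tables.

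Counts were tested with edgeR 4.0.16 in R 4.3.3, using TMM scaling, filterByExpr and the robust quasi-likelihood test, and adjusted by Benjamini-Hochberg over all genes tested. Each tissue was fitted with its 3 genotypes, and both brain regions together for interactions. The threshold was an adjusted p under 0.05. CPM used TMM library sizes. DESeq2 1.42.0 was an alternative, as were other scalings, filters, covariates (GC content in 20 bins, Y-linked expression, choroid plexus markers), the replicate number as a block and left-out libraries. The procedure was tested on simulated data. Over 238 pairs of replicates, 0 were identical, and the smallest chi-square per degree of freedom was 4.17.

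A member was named with full statistics where it passed and changed by 0.5 or more in log2, and otherwise mainly where it passed in 2 or more tissues; Fzd3, Fzd4, Fzd6, Fzd8, Dkk3, Wnt1 and Wnt2 in the text were partly chosen after their values were seen. Of the other pathway genes, the 3 with the smallest p in each comparison were named if past the threshold, plus Axin2, Wls, Lgr5 and Lef1. Members and gene lists were chosen with earlier results of these data known.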

Additional observations from a re-analysis of the deposited data

Results flagged for a closer look

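In 153 groups of 7 or 8 samples, 17 held a sample far from the others by Dixon's criterion, where chance gives about 1 in 20, or 7.65. In cerebellum, Cic-S-KO replicate 6 was the highest of its group for Sfrp1 (26.4 CPM, the others up to 13.3), Sfrp5 (9.10 CPM, up to 3.65), Wnt5a (14.5 CPM, up to 11.1) and Wnt9a (3.80 CPM, up to 2.20), and it had the highest choroid plexus marker sum, 4292 CPM, and the highest brainstem neuron marker sum, 177.8 CPM against 43.4 to 79.3 CPM in the other Cic-S-KO samples; their part was not tested. WT replicate 1 stood out for Sfrp5 (6.79 CPM, up to 3.08) and Fzd10 (3.47 CPM, up to 2.27), WT replicate 3 for Wnt3 (26.2 CPM, up to 22.7), Cic-S-KO replicate 5 for Wnt10b (1.13 CPM, up to 0.768) and Cic-L-KO replicate 7 for Rspo3 (11.6 CPM, up to 9.35). In cortex, WT replicate 2 stood out for Sfrp5 (1.82 CPM, up to 1.06), WT replicate 5 for Fzd2 (23.1 CPM, up to 17.3) and Cic-S-KO replicate 7 for a low Sfrp1 (10.1 CPM, the others from 12.9).

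In lung, Cic-S-KO replicate 5, the library with neuronal counts, stood out for Rspo3 (2.35 CPM, up to 1.27), Cic-S-KO replicate 6 for Sfrp1 (28.4 CPM, up to 18.1), Cic-S-KO replicate 4 for a low Wnt7a (12.3 CPM, the others from 18.5), Cic-L-KO replicate 3 for Rspo1 (17.7 CPM, up to 13.3) and WT replicate 5 for Wnt2b (4.40 CPM, up to 3.43).

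The knockout effect differed between cortex and cerebellum, by the interaction test over brain samples (log2, cortex minus cerebellum). For Cic-S-KO these were Wnt7a at 0.60, Rspo3 at -0.47, Fzd2 at -0.58, Wnt9a at -0.78 and Wnt9b at -1.37. For Cic-L-KO they were Sfrp5 at 2.49, Wnt10b at 1.08, Wnt7a at 0.68, Fzd3 at -0.23, Wnt3 at -0.44, Rspo2 at -0.49, Rspo3 at -0.52, Wnt4 at -0.60, Fzd2 at -0.69, Fzd10 at -1.13, Wnt9a at -1.23 and Rspo1 at -3.09.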

How the results depend on the processing

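Of 109 calls of members over 12 comparisons, 86 passed under every alternative fit that tested them, 23 were lost under at least 1, and 0 changed sign. A call was not counted as lost where an alternative did not test its gene. With a filter of a mean of at least 50 counts, 94 calls passed and the others, of low counts, were not tested. With a minimum absolute log2 fold change of 0.5, the calls were 4, 1 and 3 in lung (Cic-S-KO, Cic-L-KO and one knockout against the other), 1, 6 and 6 in cortex and 3, 4 and 1 in cerebellum. With the replicate number as a block Cic-L-KO lung had 7 calls, and Cic-S-KO had 1 in cortex, 3 in cerebellum and 3 for its interaction. The number was that of the sample titles. In both brain regions the Cic-S-KO library names skip the same number, so most of their title and library numbers differ. Blocks and same-number correlations within a brain region thus matched most Cic-S-KO samples to other library numbers. Under the block 12 calls were lost. In Cic-S-KO cerebellum these were Fzd2 (edgeR adjusted p = 0.151), Fzd10 (0.0924) and Wnt7b (0.0635). In Cic-L-KO cerebellum they were Fzd6 (0.0656) and Wnt10b (0.0672). In cortex Sfrp2 (0.056) and Rspo3 (0.0529) were lost in Cic-S-KO and Wnt1 (0.0545) in Cic-L-KO. Wnt7a (0.0563) was lost between the knockouts in lung. Of the interactions, Fzd2 (0.125) and Wnt9b (0.0912) were lost for Cic-S-KO and Wnt10b (0.0537) for Cic-L-KO. No source says that a number marks a shared animal or day, and the numbers were not taken as pairs because not every number's deviations correlated above 0.1. Same-numbered samples correlated at 0.0821 to 0.287 in lung, -0.0442 to 0.143 in cortex, -0.147 to 0.133 in cerebellum and -0.0311 to 0.215 between the brain regions. The share of samples that matched their own number best was 41.7%, 39.1%, 8.7% and 45.7% in that order. This is a hint from the data of a link in lung, in cortex and between brain regions. The interaction fit took the brain samples as unpaired. With GC adjustment Cic-S-KO cortex had 0 edgeR calls and 6 members at an unadjusted p under 0.05. DESeq2, run without GC adjustment, gave 3 calls there. The choroid plexus covariate, chosen after seeing the data, gave 10 calls in Cic-S-KO cerebellum and 5 between the knockouts there, and leaving out Cerebellum Cic-L-KO replicate 4 also gave 5. Without the count filter the Cic-S-KO interaction had 2 calls. Without the 2 brain libraries that stood apart, Fzd2 in the Cic-S-KO interaction (edgeR adjusted p = 0.0579) and Rspo2 in the Cic-L-KO interaction (0.05) were lost. Other scalings moved the median of all genes by at most 0.031 in log2. Members under about 1 CPM, such as Dkk2, Wnt10b and Rspo1 in cerebellum and Wnt9b in cortex, rest on few reads.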
